A study of Homo sapiens with 12 samples.

Results

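The genes of the epithelial-mesenchymal transition examined here were ZEB1, ZEB2, SNAI1, SNAI2, TWIST1, VIM, CDH1 and CDH2. Their H3K27ac peaks were taken from the peak lists of SUIT2, Panc327 and BxPC3 cells as every peak that overlapped a fixed hg19 window around a gene. The windows were 25 to 250 kb wide, and 107 of the 190767 peaks of the 6 lists fell in them. H3K27ac is an acetylation of histone H3 that marks active promoters and enhancers. It was profiled by ChIP-seq in these human pancreatic ductal adenocarcinoma lines, with 2 H3K27ac libraries per line and input libraries alongside. No cells received a treatment, and all were cultured in the ordinary way, so the groups are the cell lines themselves. SUIT2 was established from a metastasis in the liver, Panc327 is a pancreatic cancer line given here under its label's name, and BxPC3, an epithelial line, was established from a primary tumour of the pancreas. Each line is a single line, so a difference between them is one between these cells and not between kinds of tumour.

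In the epithelial-mesenchymal transition, epithelial cells give up their contacts with neighbours and take on a motile, fibroblast-like state. Transcription factors of the ZEB, SNAIL and TWIST families bind E-boxes and repress epithelial genes, above all CDH1, which encodes the adhesion molecule E-cadherin. Mesenchymal genes such as VIM, the intermediate filament vimentin, and CDH2, the adhesion molecule N-cadherin, are then raised. In pancreatic cancer a high ZEB1 and vimentin level is known from poorly differentiated, invasive tumours. H3K27ac at a gene is a chromatin mark and no measure of its RNA or protein, neither of which was measured.

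RefSeq promoters, 250 bases before to 50 after a transcript start, were used for 4 of the 8 genes (11 starts in all, GRCh38.p14). Shown are the promoters of the members whose H3K27ac set SUIT2 apart, in lower case with the E-box CAGGTG, or CACCTG on the other strand, in capitals. For ZEB1, which has 7 annotated starts within 3.24 kb, the start with the most E-boxes is given.
VIM, GRCh38.p14 chr10:17227991-17228290, plus strand: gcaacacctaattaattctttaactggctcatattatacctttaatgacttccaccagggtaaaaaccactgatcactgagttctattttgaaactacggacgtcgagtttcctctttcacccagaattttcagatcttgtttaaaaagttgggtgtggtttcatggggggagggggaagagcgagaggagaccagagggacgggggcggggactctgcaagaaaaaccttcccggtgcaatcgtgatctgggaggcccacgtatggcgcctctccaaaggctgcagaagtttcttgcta
ZEB1 (start 3 of 7), GRCh38.p14 chr10:31318966-31319265, plus strand: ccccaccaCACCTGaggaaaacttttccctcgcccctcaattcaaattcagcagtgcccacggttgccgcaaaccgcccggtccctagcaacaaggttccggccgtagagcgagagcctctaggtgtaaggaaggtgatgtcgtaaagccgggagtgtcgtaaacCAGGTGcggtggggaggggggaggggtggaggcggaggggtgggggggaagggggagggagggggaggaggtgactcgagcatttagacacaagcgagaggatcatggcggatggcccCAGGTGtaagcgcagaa
CDH2 (upstream start), GRCh38.p14 chr18:28177081-28177380, minus strand: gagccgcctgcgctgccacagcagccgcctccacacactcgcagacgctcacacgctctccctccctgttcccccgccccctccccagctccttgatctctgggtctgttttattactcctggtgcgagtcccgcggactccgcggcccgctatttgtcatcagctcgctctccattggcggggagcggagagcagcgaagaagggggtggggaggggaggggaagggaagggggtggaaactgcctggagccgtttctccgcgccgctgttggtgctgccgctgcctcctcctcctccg
The ZEB1 stretch held 3 such E-boxes, whose first bases lay at −242, −85 and 33 counted from the first transcribed base as 0. That start was picked for its E-boxes: 5 of the 7 ZEB1 starts held 0, and 2 of the 11 promoters of these genes held any. Of all 35116 promoters of the same length, 20.6% held at least 1. These matches describe letters and are not binding sites. All peak positions below are on hg19, for which no annotation was used, so no peak was assigned to these promoters by position.

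The 6 lists held 27776 to 38335 peaks, which covered 60.1 and 63.3 Mb in SUIT2 replicates 1 and 2, 34.1 and 46.3 Mb in Panc327 and 48.7 and 54.6 Mb in BxPC3. The median pile-up at a peak, recovered from the deposited values, is no measure of depth alone. It was 98 and 96 reads in SUIT2, 68 and 55 in Panc327 and, as a scaled value, 51.9 and 54.1 in BxPC3. The genome-wide background, recovered likewise, was 3.29 and 3.61 in SUIT2, 1.46 and 2.85 in Panc327 and 1.96 and 2.37 in BxPC3. SUIT2 thus had the widest cover, and a higher median pile-up and background than Panc327. Panc327 replicate 1 had the narrowest cover, and a lower background than SUIT2 and Panc327 replicate 2. In BxPC3 the background is a scaled value like the pile-up, so neither is ranked against the other lines. Whether the replicates were separate cultures is not said in the labels, so each spread is that between these libraries. With 2 libraries against 2, the exact permutation test cannot give a two-sided p under 0.333, and no difference between lines can pass 0.05. Each comparison therefore says whether the libraries of the lines overlapped.

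Summed over the 8 windows, H3K27ac peaks covered 36.6 and 39.1 kb in SUIT2, 15.1 and 22.2 kb in Panc327 and 22.9 and 27.4 kb in BxPC3. The SUIT2 libraries lay above the other 4. Most of the Panc327 and BxPC3 cover lay in the window of the epithelial gene CDH1. In the 7 windows without it, the cover was 23.3 and 25.7 kb in SUIT2, 6.69 and 5.67 kb in Panc327 and 8.66 and 9.58 kb in BxPC3, or 24.5 ± 1.70, 6.18 ± 0.722 and 9.12 ± 0.649 kb (SD, n = 2). The genes behind this differed by line: SUIT2 carried broad domains at VIM, ZEB1 and CDH2, Panc327 carried the TWIST1 peak and the most cover at SNAI1, and BxPC3 the broadest domain at SNAI2.

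**Figure D1:**
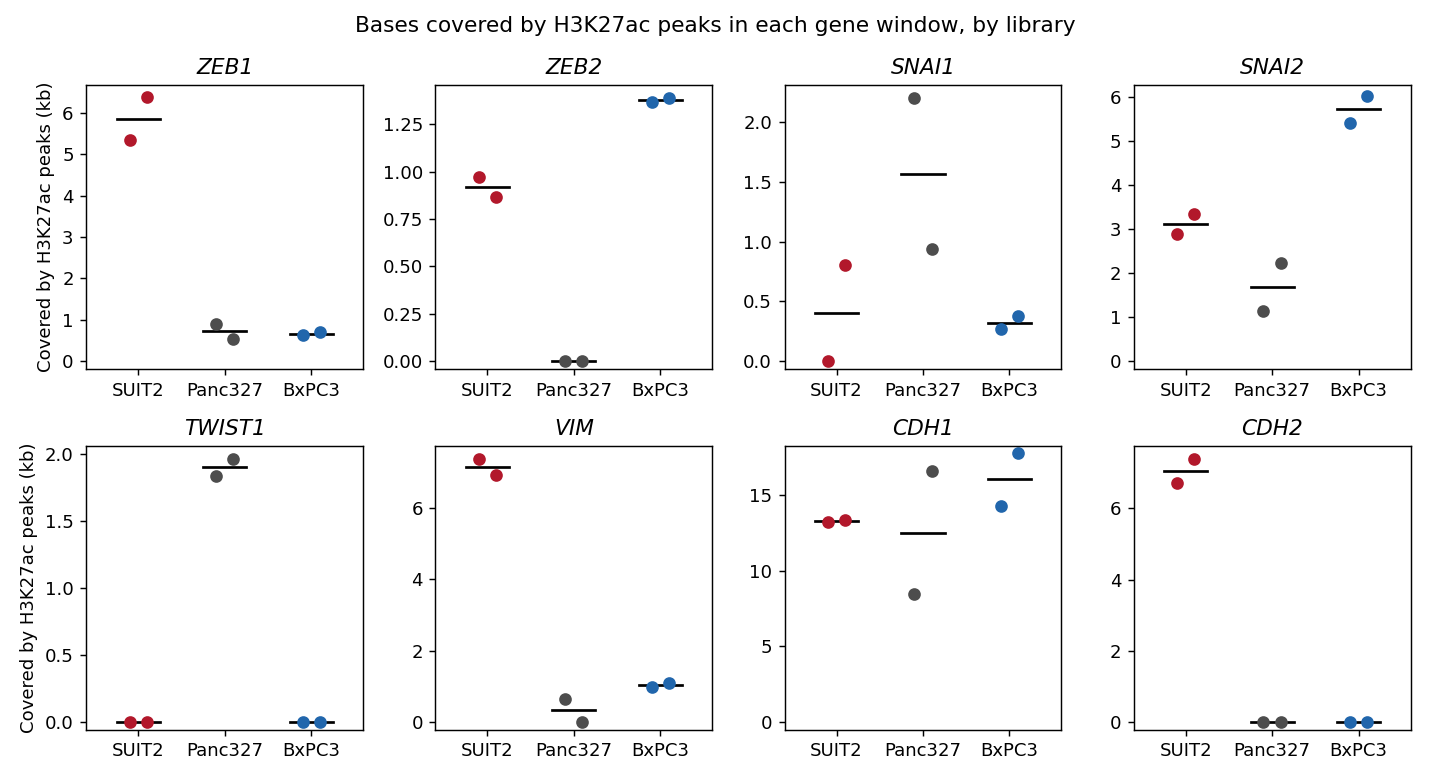
Bases covered by called H3K27ac peaks (kb) in each gene window, 1 point per library, with a line at the mean of the 2 libraries of SUIT2, Panc327 and BxPC3; each panel has its own scale. SUIT2 lies above the other lines at ZEB1, VIM and CDH2, Panc327 at SNAI1 and TWIST1, and BxPC3 at ZEB2 and SNAI2.

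VIM, the gene of vimentin, carried 1 broad peak in both SUIT2 libraries. It ran from chr10:17268436 to 17275818 in replicate 1 and from chr10:17268667 to 17275590 in replicate 2, widths of 7.38 and 6.92 kb. In Panc327, replicate 1 had a peak of 0.634 kb and replicate 2 had none. In BxPC3 the peaks were 0.989 and 1.09 kb wide. By the authors' −log10 q, the SUIT2 peaks stood at percentiles 99.3 and 98.9 of their own lists, the Panc327 peak at 21.9 and the BxPC3 peaks at 53.7 and 59.6. The VIM window was thus marked in every library but Panc327 replicate 2, yet was among the strongest peaks of a list in SUIT2 and in neither other line. The narrow Panc327 and BxPC3 peaks lay wholly inside the SUIT2 domain and shared a place: their summits fell at chr10:17272400 in Panc327 replicate 1 and at 17272393 and 17272381 in BxPC3, 800 to 1504 bases above the SUIT2 summits. Mean cover was 7.15 ± 0.325 kb in SUIT2, 0.317 ± 0.448 kb in Panc327 and 1.04 ± 0.0693 kb in BxPC3 (SD, n = 2). That is 6.89 times as much in SUIT2 as in BxPC3, with no overlap between the libraries (exact permutation p = 0.333).

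ZEB1, which encodes a zinc-finger repressor of CDH1, showed the same contrast. Toward the low-coordinate end of the window, the end at which the gene begins, SUIT2 had a peak of 4.98 and 5.05 kb, at chr10:31606680-31611660 in replicate 1 and chr10:31606604-31611650 in replicate 2. In Panc327 the peak there was 0.573 and 0.544 kb wide, with a further one of 0.317 kb in replicate 1, and in BxPC3 it was 0.621 and 0.693 kb wide. All 5 of those narrow peaks lay inside the SUIT2 domain. The main Panc327 and BxPC3 peaks had summits within 57 bases of each other, between chr10:31607698 and 31607755, whereas the SUIT2 summits were at 31608360 and 31608446. This end of ZEB1 was therefore marked in all 6 libraries, and the lines differed in the breadth of the mark. The SUIT2 peaks ranked at percentiles 98.3 and 98.3 of their lists, the Panc327 ones at 57.5 and 36.8 and the BxPC3 ones at 67.1 and 64.7. Over the window, cover averaged 5.87 ± 0.737 kb in SUIT2, 0.717 ± 0.245 kb in Panc327 and 0.657 ± 0.0509 kb in BxPC3 (SD, n = 2), or 8.18 times as much in SUIT2 as in Panc327 and 8.93 times as much as in BxPC3. SUIT2 did not overlap either line (exact permutation p = 0.333 each), while Panc327 and BxPC3 overlapped. Both SUIT2 libraries also had a weak peak farther into the gene, merged as chr10:31631589-31632675, at percentiles 8.64 and 18.6, with no peak there in Panc327 or BxPC3.

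The surroundings of ZEB1 differed in the same direction. Within 1 Mb on either side of the window, SUIT2 had 72 and 74 peaks covering 195 and 208 kb, Panc327 had 12 and 9 covering 12.2 and 16.7 kb, and BxPC3 had 23 and 32 covering 31.6 and 38.8 kb. Of the 78 merged regions in those flanks, 41 (52.6%) were marked in SUIT2 alone, meaning called in both its libraries and in none of the other 4, against 13.0% of all merged regions. The flanking regions marked in Panc327 alone and in BxPC3 alone numbered 0 each, against 5.79% and 12.9% of all merged regions. The widest SUIT2-only ones were at chr10:32477621-32496974 (19.4 kb) and chr10:30981838-30997239 (15.4 kb), 648 kb above and 593 kb below the window. The local background that the peak caller drew on was 1.15 and 1.02 times its genome-wide level there in SUIT2 and at that level in Panc327 and BxPC3. That level is the floor of this value, so a background below it would read the same. Around VIM, on the same chromosome, the flanks differed in the same direction by less: the cover was 27.2 and 27.1 kb in SUIT2, 9.05 and 10.7 kb in Panc327 and 13.5 and 16.3 kb in BxPC3, and 6 of 28 flanking regions (21.4%) were marked in SUIT2 alone and 4 (14.3%) in BxPC3 alone. SUIT2 also had the most flank cover around SNAI1 and CDH1, though not the most cover within those windows. Around SNAI1 it was 235 and 257 kb in SUIT2, 91.0 and 136 kb in Panc327 and 156 and 175 kb in BxPC3. Around CDH1 it was 177 and 189 kb, 87.2 and 144 kb, and 120 and 131 kb in the same order. Marked in SUIT2 alone were 17.3% and 12.6% of those flanking regions. The flanks were examined after the values in the windows were known.

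**Figure D2:**
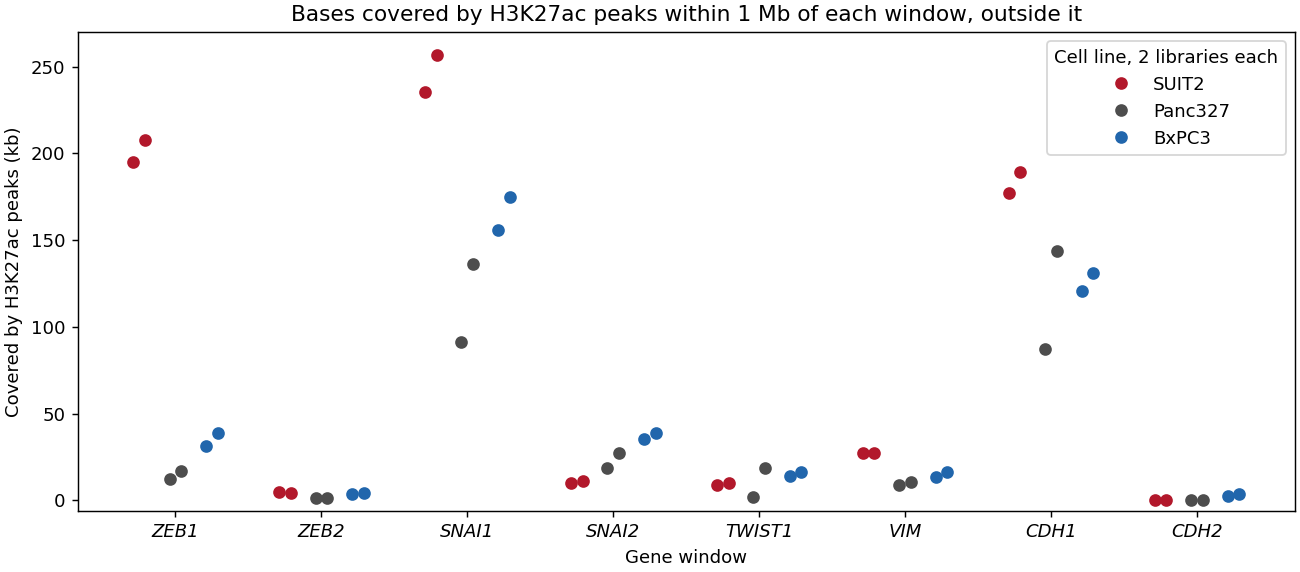
Bases covered by H3K27ac peaks (kb) within 1 Mb of each gene window and outside it, 1 point per library, for SUIT2, Panc327 and BxPC3. Around ZEB1 the SUIT2 libraries cover 195 and 208 kb and the other 4 libraries 12.2 to 38.8 kb. SUIT2 also lies highest around VIM, SNAI1 and CDH1. The flanks of ZEB2 and CDH2 are nearly bare in every library.

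CDH2, the gene of N-cadherin, was marked in SUIT2 and in neither other line. Both SUIT2 libraries had 3 peaks at the high-coordinate end of the window, where the gene, read toward lower coordinates, begins. They merged to chr18:25747358-25749775, 25752676-25755318 and 25755840-25758281, 2418, 2643 and 2442 bp wide. Cover was 6.73 and 7.40 kb in SUIT2 and 0 in the 4 libraries of Panc327 and BxPC3, so the lines did not overlap (exact permutation p = 0.333 each). These were mid-list peaks and not strong ones: the highest −log10 q stood at percentiles 46.9 and 50.6 of the SUIT2 lists, with pile-ups of 82 and 94 reads. The gene stands in a sparsely marked stretch. Within 1 Mb of the window SUIT2 had 1 and 0 peaks, Panc327 0 and 0 and BxPC3 5 and 6, so in Panc327 the lack of called peaks extended through the flanks. Peak lists show called peaks alone, and a weaker signal below the caller's threshold would be listed as no peak.

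TWIST1, a basic helix-loop-helix factor of the transition, was marked in Panc327 alone, whereas CDH2 was marked in SUIT2 alone. Panc327 had 1 peak in each library, chr7:19155844-19157685 in replicate 1 and chr7:19155516-19157482 in replicate 2, with widths of 1.84 and 1.97 kb and summits 63 bases apart. SUIT2 and BxPC3 had no peak in the window. The Panc327 peaks ranked at percentiles 81.6 and 76.1 of their lists, with pile-ups of 258 and 98 reads. Panc327 did not overlap SUIT2 or BxPC3 (exact permutation p = 0.333 each). Beside this, the local background in the Panc327 flanks of TWIST1 was 2.23 and 2.6 times the genome-wide level over 3 and 13 flanking peaks, against 1.20 and 1.18 times in SUIT2 and 1.53 and 1.27 times in BxPC3. At the peaks themselves it was 1.75 and 1.63 times, and the caller's fold over it was 73.0 and 17.5. The part of this background in the result was not tested.

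**Figure D3:**
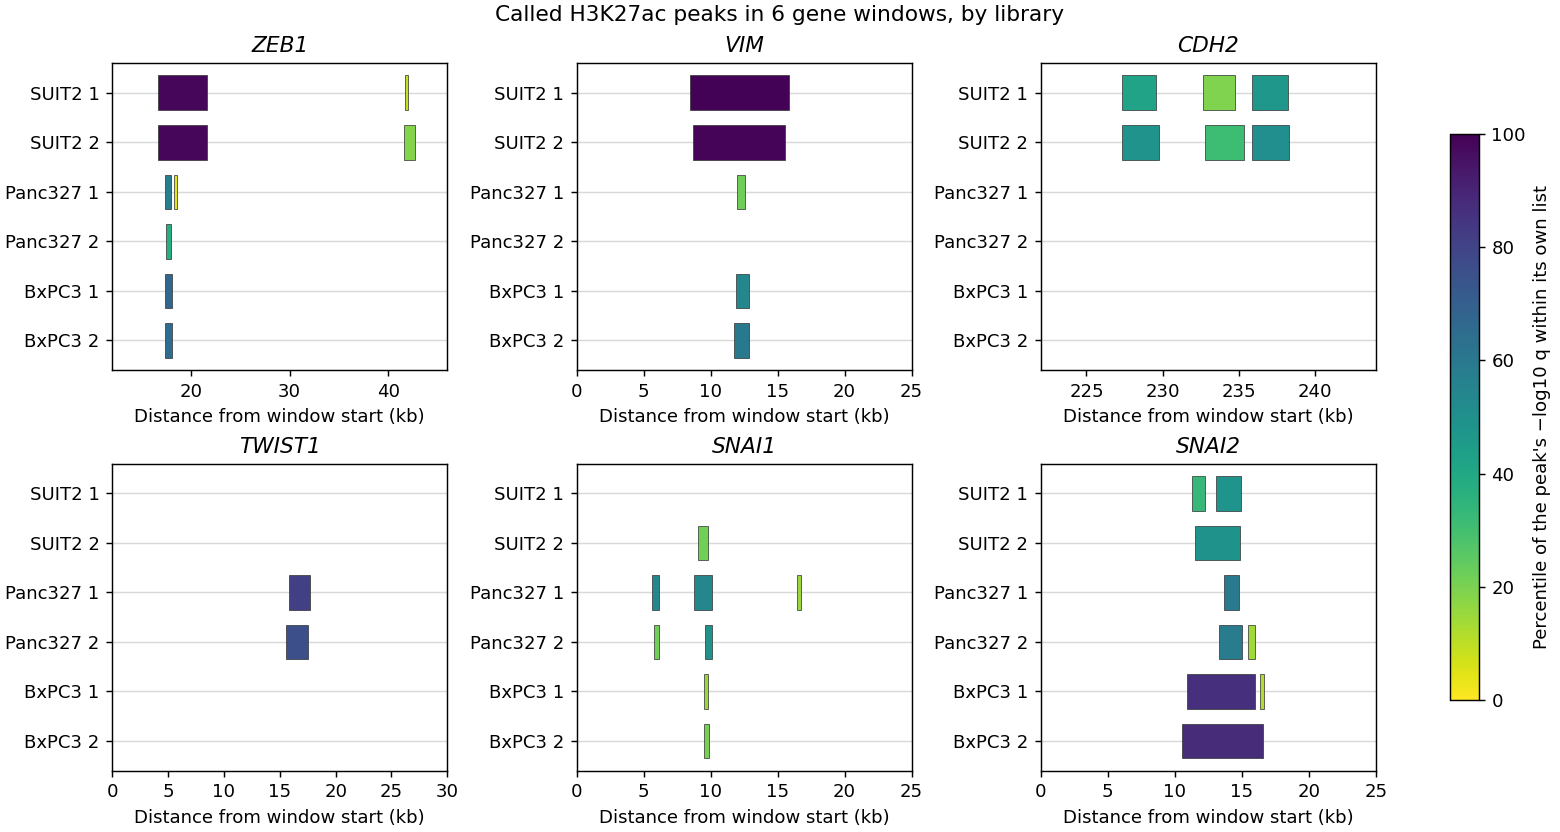
Called H3K27ac peaks of the 6 libraries at ZEB1, VIM, CDH2, TWIST1, SNAI1 and SNAI2, drawn by distance from the window start (kb; ZEB1 and CDH2 in part) and coloured by the percentile of the peak's −log10 q within its own list. The broad, dark SUIT2 domains at ZEB1 and VIM contain the narrow peaks of Panc327 and BxPC3, CDH2 is marked in SUIT2 alone and TWIST1 in Panc327 alone.

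SNAI1, the zinc-finger repressor Snail, was marked most in Panc327. Cover was 0 and 0.80 kb in SUIT2, 2.20 and 0.934 kb in Panc327 and 0.264 and 0.379 kb in BxPC3. Panc327 lay above the others, and SUIT2 and BxPC3 overlapped. With a −log10 q of at least 20, SUIT2 and Panc327 overlapped too (a difference of −0.977 kb, exact permutation p = 0.667). Their difference of −1.17 kb was −0.534 kb without Panc327 replicate 1, −1.80 kb without Panc327 replicate 2 and −0.768 kb without SUIT2 replicate 1. A central region, chr20:48598780-48600127, was called in all libraries but SUIT2 replicate 1. Its peak reached percentile 21.6 of the list in SUIT2 replicate 2, 53.6 and 50 in Panc327 and 15.6 and 21.0 in BxPC3. A second region below it, chr20:48595595-48596160, was called in both Panc327 libraries alone, at percentiles 53.8 and 21.7. The Panc327 libraries ranked the elements differently, the lower one first in replicate 1 and the central one first in replicate 2, so their strongest summits were 3885 bases apart.

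SNAI2, which encodes Slug, a relative of Snail that basal epithelial cells also express, had its broadest domain in BxPC3. A region at chr8:49830560-49836639 was called in all 6 libraries. Its peaks covered 2.88 and 3.34 kb in SUIT2, 1.13 and 2.23 kb in Panc327 and 5.42 and 6.03 kb in BxPC3, and no line overlapped another (exact permutation p = 0.333 for each pair). Relative to the cover of the whole list, SUIT2 and Panc327 overlapped (a difference of 9.73 bases per covered Mb, exact permutation p = 0.667). Their difference of 1.43 kb was 0.882 kb without Panc327 replicate 1. SUIT2 averaged 3.11 ± 0.326 kb, Panc327 1.68 ± 0.779 kb and BxPC3 5.73 ± 0.433 kb (SD, n = 2). The strongest peak ranked at percentiles 48.2 and 48.9 in SUIT2, 59.0 and 58.3 in Panc327 and 86.0 and 87.7 in BxPC3. The strongest summits lay within 106 bases of each other in SUIT2, BxPC3 and Panc327 replicate 1, between chr8:49834268 and 49834374, and at chr8:49833687 in Panc327 replicate 2. The local background at the BxPC3 peaks was 1.52 and 1.25 times the genome-wide level, against 1.22 and 1.00 times in SUIT2 and 1.28 and 1.33 times in Panc327. The flanks within 1 Mb also had the most cover in BxPC3: 35.4 and 38.7 kb, against 9.99 and 10.9 kb in SUIT2 and 18.6 and 27.4 kb in Panc327. Of 46 flanking regions, 12 (26.1%) were marked in BxPC3 alone, 3 (6.52%) in Panc327 alone and 1 (2.17%) in SUIT2 alone. Over all regions these shares were 12.9%, 5.79% and 13.0%.

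ZEB2, the paralogue of ZEB1, had 1 region, chr2:145146265-145147652, in SUIT2 and BxPC3 and no peak in Panc327. It lay near the low-coordinate end of the window, and the gene, read toward lower coordinates, begins at the other end, where no library had a peak. Cover was 0.970 and 0.867 kb in SUIT2, 0 in both Panc327 libraries and 1.37 and 1.39 kb in BxPC3. The lines did not overlap. The peak summits of SUIT2 and BxPC3 lay within 59 bases of each other, from chr2:145147189 to 145147248. Percentiles within the lists were 52.4 and 53.3 in SUIT2 and 74.1 and 75.2 in BxPC3. Unlike ZEB1, ZEB2 thus had no broad domain in SUIT2.

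CDH1, the gene of E-cadherin and the epithelial marker among the members, was marked in every library, and held 63 of the 107 member peaks. SUIT2 had 7 and 10 peaks covering 13.2 and 13.4 kb, Panc327 9 and 10 covering 8.44 and 16.6 kb, and BxPC3 13 and 14 covering 14.3 and 17.8 kb. SUIT2 lay below BxPC3 without overlap, at 13.3 ± 0.0919 kb against 16.0 ± 2.5 kb (SD, n = 2, exact permutation p = 0.333), while Panc327 overlapped both. SUIT2 and BxPC3 overlapped with a −log10 q of at least 20 (a difference of −1.465 kb) and with lists of equal size (−1.301 kb), with an exact permutation p of 1 each, and in windows widened by 20 kb (−1.55 kb, exact permutation p = 0.667). Their difference of −2.72 kb was −0.954 kb without BxPC3 replicate 2 and −4.49 kb without BxPC3 replicate 1. Relative to the cover of the whole list, SUIT2 lay below both BxPC3 and Panc327 without overlap. The differences were −93.6 and −86.9 bases per covered Mb (exact permutation p = 0.333 each). SUIT2, the line with the broad VIM and ZEB1 domains, thus carried H3K27ac at CDH1 as well.

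The lines also differed in which elements of CDH1 were strongest by −log10 q. Toward the low-coordinate end, at which the gene begins, 3 regions were called in all 6 libraries, chr16:68766058-68766765, chr16:68770719-68772836 and chr16:68773612-68779358. The middle one held the highest −log10 q of the window in Panc327 and BxPC3, at percentiles 85.8 and 86.4 of the Panc327 lists and 97.2 and 93.1 of the BxPC3 lists, but stood at 53.3 and 58.5 of the SUIT2 lists. In SUIT2 the strongest element was an internal one, chr16:68825701-68829234, with peaks of 3.19 and 3.53 kb at percentiles 69.7 and 75.4. Panc327 had no peak there, BxPC3 replicate 1 had none, and BxPC3 replicate 2 had a narrow one that ended 67.5 kb into the window.

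A second internal element moved the other way. Panc327 and BxPC3 had a peak with its summit 29.8 kb into the window, second by −log10 q within CDH1 in all 4 libraries. It stood at percentiles 49.6 and 71.3 in Panc327 and 82.7 and 83.3 in BxPC3. By the caller's fold it was above the element at chr16:68770719-68772836 in replicate 2 of Panc327 (17.8 against 16.5) and of BxPC3 (45.9 against 43.4), and below it in replicate 1 of each. No SUIT2 peak reached it: the nearest ended 27 kb into the window. Regions at chr16:68794203-68795353 and chr16:68811907-68813676 were called in both BxPC3 libraries and Panc327 replicate 2, with no SUIT2 peak. Panc327 replicate 1 had no peak beyond 36.1 kb from the window start, whereas replicate 2 shared 3 regions beyond 50 kb with BxPC3. Of these, chr16:68823480-68825407 and chr16:68831632-68834899 were called in both SUIT2 libraries as well. Those Panc327 libraries shared 0.420 of the CDH1 bases that either covered, against 0.855 for the SUIT2 pair and 0.782 for the BxPC3 pair.

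**Figure D4:**
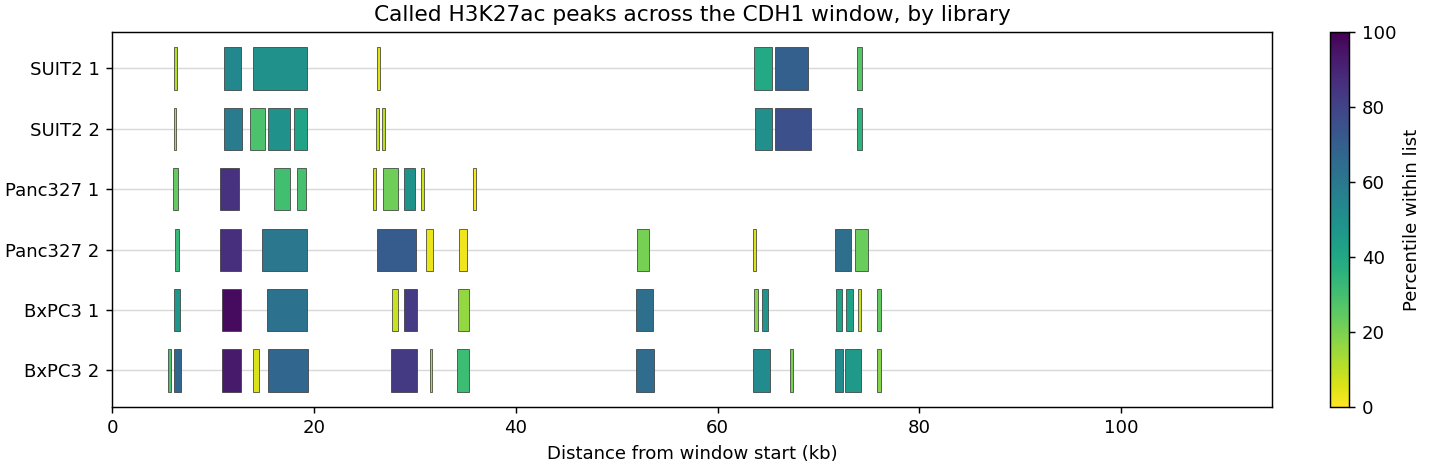
Called H3K27ac peaks across the CDH1 window by distance from its start (kb), 1 row per library of SUIT2, Panc327 and BxPC3, coloured by percentile of −log10 q within the library's own list. The element about 11 kb from the start is darkest in Panc327 and BxPC3, and the one from 65.7 kb is darkest in SUIT2.

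Taken as merged regions, the 107 peaks formed 28 regions out of 58994 over the genome. Both libraries marked 15 of the 28 in SUIT2 (53.6%), 9 in Panc327 (32.1%) and 14 in BxPC3 (50%), against 45.6%, 33.7% and 49.7% of all regions. Marked in SUIT2 alone were 4 (14.3%, against 13.0% of all regions), in Panc327 alone 2 (7.14% against 5.79%) and in BxPC3 alone 1 (3.57% against 12.9%). A peak in all 6 libraries was found in 6 regions, 21.4% against 21.6%. The 4 SUIT2-only regions were the 3 of CDH2 and the weak one of ZEB1, the Panc327-only ones those of TWIST1 and SNAI1, and the BxPC3-only one the small CDH1 region chr16:68835809-68836173. The BxPC3-only share rests on 1 region, a count that was 0 with lists of equal size and 4 without Panc327 replicate 2. The other shares are near those of all regions, and 15 of the 28 regions lay in the CDH1 window. None of these shares is a result about the members as a set. The broad SUIT2 domains at VIM and ZEB1 do not count among SUIT2-only regions, since narrow peaks of the other lines fall inside them.

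Between SUIT2 and BxPC3, 4 member regions were marked in SUIT2 with no BxPC3 peak (14.3%, against 15.4% of all regions) and 3 in BxPC3 with no SUIT2 peak (10.7% against 20.2%). Between SUIT2 and Panc327 the counts were 6 (21.4% against 18.3%) and 2 (7.14% against 10.1%). Between Panc327 and BxPC3 they were 2 (7.14% against 7.16%) and 2 (7.14% against 17.6%). By covered bases, 8 member regions were higher in both SUIT2 than in both BxPC3 libraries and 9 lower (28.6% and 32.1%, against 34.5% and 27.3% of all regions). For SUIT2 and Panc327 these were 11 and 5 (39.3% and 17.9%, against 35.0% and 14.4%), and for Panc327 and BxPC3 4 and 8 (14.3% and 28.6%, against 13.2% and 31.2%). In the 24 comparisons of a gene window between lines, the smallest exact permutation p of 0.333 became 0.444 with Benjamini-Hochberg adjustment.

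In the order of covered bases over the 6 libraries, ZEB2 and SNAI2 were the most alike pair of windows (Spearman's rho = 0.928), followed by ZEB1 and CDH2 (0.845), with VIM near both ZEB1 (0.771) and CDH2 (0.778). SNAI1 went with TWIST1 (0.778). TWIST1 ran most against VIM (−0.845) and ZEB2 (−0.823). CDH1 ran with SNAI2 (0.657) and ZEB2 (0.493) and against ZEB1 (−0.60), CDH2 (−0.372) and VIM (−0.200). These are descriptions of 6 libraries from 3 lines that share their depth and line, and carry no p. Libraries without a peak tie, as most do at TWIST1 and CDH2. Ties limit how far rho can go, so its size does not strictly rank the pairs. By presence alone, ZEB1, SNAI2 and CDH1 had a peak in all 6 libraries, VIM and SNAI1 in 5, ZEB2 in 4, and TWIST1 and CDH2 in 2.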

How the data were processed

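H3K27ac ChIP-seq of SUIT2, Panc327 and BxPC3 cells was used, 2 libraries per line; the input libraries entered through the caller's background alone. The submitters' processing notes name bcl2fastq 1.8.4, Bowtie 1.1.1, MACS2 and the build hg19; the settings of MACS2 are not given in the sources used here. Peaks were deposited per library and not pooled. The deposited fold (a linear ratio), −log10 p, −log10 q and score of each peak are the authors' values, used within a list; the score was not used, and the summit position was. Chromosomes 1 to 22 and X were kept, so no list lost more than 3 peaks.

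Peaks overlapping a window by at least 1 bp were members. Lists were merged where peaks shared at least 1 bp; bedtools 2.31.1 gave the same 58994 regions. Marked means a peak in both libraries of a line. Fold and p were solved for a pile-up and its local background. The fold was taken as pile-up over background with a pseudocount of 1 each, and p as a Poisson tail. A pile-up of whole reads met this for 99.9 to 100% of peaks in each SUIT2 and Panc327 list. In BxPC3 the pile-up was no whole number and was solved as a scaled one, a looser match that is no check of the form. This rests on the usual form of the caller's values, which no label states. Both steps were tested on simulated data. Cover was compared with exact permutation tests in scipy 1.17.1 (Python 3.11.15, numpy 2.4.6, pandas 2.3.3, matplotlib 3.10.9).

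Members and lists were chosen with earlier results of these data known. All 8 members are named; peaks given by position are, by rule, the widest and strongest of each library and the regions of one line without a peak in another, and other positions were chosen after their values were seen. Genes of the pathway outside the 8 windows need hg19 positions and were not analysed here. Alternatives were a stricter q, lists of equal size, summits in place of overlap, wider windows, 50% cover, a 1 kb gap, cover per covered Mb of the list, a replicate block and leaving out each library.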

Additional observations from a re-analysis of the deposited data

How the results depend on the processing

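The presence or absence of peaks at CDH2, TWIST1, ZEB2 and VIM in each of the 6 libraries was the same with a −log10 q of at least 20, with lists of equal size and with summits in place of overlap. The BxPC3 peaks at SNAI1 were lost with the stricter q and with equal lists. In windows widened by 20 kb, a BxPC3 peak joined the CDH2 window in both libraries. The 3 differences summed over the windows kept their direction under every alternative run. Leaving out a library gave 10.4 to 14.9 kb for SUIT2 minus BxPC3, 15.6 to 22.7 kb for SUIT2 minus Panc327 and −10.0 to −2.92 kb for Panc327 minus BxPC3. The summed cover of Panc327 and BxPC3 overlapped with lists of equal size (a difference of −4.76 kb) and relative to the cover of the whole list (−23.9 bases per covered Mb), with an exact permutation p of 0.667 each.

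Single windows changed direction in 6 cases; the cause was not tested. ZEB1 in Panc327 minus BxPC3 went to −0.0985 kb with the stricter q and −0.113 kb without Panc327 replicate 1 (0.233 kb without replicate 2). SNAI1 in SUIT2 minus BxPC3 went to −0.322 kb without SUIT2 replicate 2 (0.479 kb without replicate 1). CDH1 in SUIT2 minus Panc327 went to −3.25 kb without Panc327 replicate 1 (4.87 kb without replicate 2) and to −86.9 bases per covered Mb. In Panc327 minus BxPC3 it went to 0.528 kb without Panc327 replicate 1 (−7.59 kb without replicate 2).

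Counts of member regions moved by more than 1.5 times as follows. With a −log10 q of at least 20, Panc327 alone marked 1. With equal lists, BxPC3 without Panc327 held 1 and BxPC3 alone 0. With windows widened by 20 kb, Panc327 marked 14, Panc327 without SUIT2, Panc327 without BxPC3 and Panc327 alone 5 each, and BxPC3 without Panc327 4. With 50% cover, Panc327 marked 5, BxPC3 9, Panc327 without SUIT2 4, BxPC3 without Panc327 4, and all 6 libraries 1. With gaps of 1 kb, BxPC3 without Panc327 held 1 and BxPC3 alone 0. Leaving out a library gave 9 to 14 marked in Panc327, 2 to 6 in Panc327 without SUIT2, 2 to 6 without BxPC3 and 2 to 6 alone; 3 to 5 in BxPC3 without SUIT2, 2 to 7 without Panc327 and 1 to 4 alone. The highest came without Panc327 replicate 2, except for BxPC3 without SUIT2 (without either BxPC3 library) and for Panc327, marked 14 times without either of its libraries. A line with 1 library left is called marked, or without a peak, by that library alone, so these counts rise by construction.

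The replicate block gave the same differences, 12.7 kb for SUIT2 minus BxPC3, 19.1 kb for SUIT2 minus Panc327 and −6.47 kb for Panc327 minus BxPC3, each with an exact sign-flip p of 0.5, the smallest that 2 pairs allow. Over all merged regions, deviations of same-numbered libraries correlated at 0.0457 for SUIT2 and Panc327, 0.0150 for SUIT2 and BxPC3 and 0.161 for Panc327 and BxPC3. With 2 libraries per line, these values cannot tell whether same-numbered libraries were handled together. An absent peak means a signal under the caller's threshold at that library's depth.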
